A study of Mus musculus with 6 samples.

Results

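The 10 genes described here are imprinted genes of the mouse, Dlk1, Meg3, Peg3, Peg10, Cdkn1c, Igf2, H19, Ndn, Magel2 and Snrpn. They were taken by symbol from the 32285 genes counted in each library, and all 10 were found in all 6 libraries. An imprinted gene is transcribed mainly from the chromosome inherited from 1 parent, under the control of a region that is methylated in only 1 of the germ lines. Several such genes lie together in clusters, and as a family they are known for setting the growth of the embryo and young animal, with high expression in mesenchyme, placenta and the developing nervous system. The counts used here do not separate the maternal from the paternal copy.

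The cells came from autonomic ganglia of mouse pups of both sexes at postnatal day 5, which carried a Cre transgene on a BAC and a RosatdT allele, from which Cre-positive cells and their progeny express the fluorescent protein tdTomato. The sympathetic stellate, coeliac and lumbar ganglia, the parasympathetic sphenopalatine ganglion and the pelvic ganglion were freed of fat and of their nerves, dissociated and sequenced without sorting, so that glial, stromal and vascular cells were retained. There were 6 libraries in 2 batches, which also differ in droplet chemistry: sphenopalatine, stellate and pelvic 1 in batch 1 with version 2, and coeliac, lumbar and pelvic 2 in batch 2 with version 3. Only the pelvic ganglion has 2 libraries, and all groups share 1 genotype and age. Classes were compared within libraries. All classes were fitted together, with the library as a block. The p-values therefore set a difference between classes against variation over libraries that is pooled from all classes, not from that difference alone. The libraries differ in ganglion, batch or both.

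The libraries held between 39353313 and 113352559 unique molecular identifiers (UMIs, each a captured RNA molecule), and 21442 cells passed the filters. Cells were assigned to classes without using any imprinted gene: 7014 neurons, 7128 glial cells, 1034 cycling glial cells, 3249 fibroblasts, 724 endothelial cells, 617 mural cells (the contractile cells around vessels) and 583 macrophages. Median depth was 26658 to 108493 UMIs per neuron and 3423 to 12096.5 per glial cell, so levels are given as CPM (the UMIs of a gene per 1000000 UMIs of the class) and not as shares of cells alone. Cells were assigned by markers, so the marker sums describe the classes and are not an independent check of them. The 5 neuronal genes summed to 11640 to 16849 CPM in neurons against 560.0 to 2567 in glia and 158 to 1466 in fibroblasts. The 7 fibroblast genes summed to 34470 to 62675 CPM in fibroblasts against 65.1 to 246 in neurons. They summed to 1832 to 7640 CPM in glia, where the collagen genes Col1a2 and Col3a1 gave most of the sum. The sphenopalatine and stellate libraries shared 49 barcodes of retained cells, pelvic 1 and stellate 45, sphenopalatine and pelvic 1 20, and the other pairs at most 4.

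The genes fall into groups by role and by cluster (positions on GRCm38, GENCODE M21). Igf2 (chr7:142650766-142666816, minus strand), the growth factor that drives prenatal growth, and H19 (chr7:142575529-142578143, minus strand), a noncoding RNA, lie 72.6 kb apart and share enhancers. Cdkn1c (chr7:143458339-143461050, minus strand) encodes p57, an inhibitor of cyclin-dependent kinases. Dlk1 (chr12:109452823-109463336, plus strand), a transmembrane and shed relative of the Notch ligands, and Meg3 (chr12:109541001-109571726, plus strand), a noncoding RNA, are 77.7 kb apart. Ndn (chr7:62346569-62350262, plus strand) and Magel2 (chr7:62377010-62381640, plus strand), both encoding MAGE family proteins, and Snrpn (chr7:59982495-60140219, minus strand), which encodes a core protein of spliceosomal particles, belong to the cluster that corresponds to the human Prader-Willi region. Peg3 (chr7:6703892-6730431, minus strand) encodes a zinc finger protein, and Peg10 (chr6:4747306-4760517, plus strand) derives from a retrotransposon and is required in the placenta. Snrpn shares exons on the same strand with Snurf, so its value can depend on how shared reads were assigned.

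Both members of the Igf2 and H19 pair carry a microRNA within the transcript, and their sequences are shown because the levels below are those of the host transcripts; the mature microRNAs were not measured. The mature sequences from RefSeq are given 5′ to 3′ with the seed, bases 2 to 8, in capitals. Mir675 lies in an exon of H19 (chr7:142577112-142577133 and chr7:142577078-142577099, minus strand), and Mir483 lies in an intron of Igf2 (chr7:142654932-142654952 and chr7:142654968-142654989, minus strand). The seeds all differ from each other.
miR-675-5p: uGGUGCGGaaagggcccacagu
miR-675-3p: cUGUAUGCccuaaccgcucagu
miR-483-3p: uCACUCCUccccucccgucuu
miR-483-5p: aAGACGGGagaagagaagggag

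The 250 bases before the RefSeq start of Dlk1 (chr12:109452573-109452822, plus strand) and before a start of Igf2 (chr7:142658805-142659054, minus strand) are shown next because these genes, on different chromosomes, were high in the same cells, fibroblasts of all ganglia and neurons of the sphenopalatine ganglion. They are from GRCm38.p6, in the direction of transcription, with each CG dinucleotide, the site of methylation, in capitals. The Dlk1 window has 8 CG sites, more than 57.0% of 32851 such windows, and the Igf2 window has 22, more than 85.2%, with a median of 6 over all windows. The windows before the other RefSeq starts of Igf2 have 1, 10 and 6 CG sites, and the one with the most is shown. Which start these cells use was not measured. Methylation was not measured in these cells.
Dlk1: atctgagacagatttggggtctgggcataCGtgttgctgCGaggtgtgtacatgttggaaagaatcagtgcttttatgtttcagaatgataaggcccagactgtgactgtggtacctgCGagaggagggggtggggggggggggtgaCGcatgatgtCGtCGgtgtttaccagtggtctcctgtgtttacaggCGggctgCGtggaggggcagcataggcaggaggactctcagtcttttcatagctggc
Igf2: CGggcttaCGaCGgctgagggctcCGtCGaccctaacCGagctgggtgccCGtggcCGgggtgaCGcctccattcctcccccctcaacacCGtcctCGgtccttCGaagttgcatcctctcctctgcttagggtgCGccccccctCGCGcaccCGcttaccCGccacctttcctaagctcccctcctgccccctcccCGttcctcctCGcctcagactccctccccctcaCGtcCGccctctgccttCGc

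The main question was how the genes are distributed between neurons and the cells around them. In neurons Snrpn, Ndn, Meg3 and Peg3 were higher than in glia. Snrpn was at 748 to 1069 CPM in neurons (median 894) and at 60.8 to 196 CPM in glia (median 95.7). The ranges lay far apart, and the log2 difference was 3.45 ± 0.20 (SE, 6 libraries, edgeR quasi-likelihood adjusted p = 1.38e-17). Ndn was at 350.1, 527 and 662 CPM (lowest, median and highest library) in neurons and at 117, 154 and 216 CPM in glia, a log2 difference of 1.97 ± 0.18 (edgeR adjusted p = 4.99e-12). Its lowest neuron library, the sphenopalatine, was still above every glial library. Meg3 was at 6042, 7238 and 11626 CPM in neurons and at 1212, 1671 and 2417 CPM in glia, a log2 difference of 2.45 ± 0.30 (edgeR adjusted p = 4.99e-09). The Meg3 groups did not overlap either. In batch 1 and batch 2 alone the log2 differences were 2.89 and 3.89 for Snrpn, 1.42 and 2.43 for Ndn and 2.21 and 2.65 for Meg3, each called by edgeR.

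Peg3 was less separated. It was at 80.2, 170.0 and 282 CPM in neurons and at 60.01, 115 and 202 CPM in glia, with a log2 difference of 0.95 ± 0.25 (edgeR adjusted p = 0.000837). The groups overlapped, and in the lumbar ganglion the level was 153 CPM in neurons and 157 CPM in glia. Without the sphenopalatine library, whose neurons had the highest level, the difference was 0.44 (edgeR adjusted p = 0.0743). It was 1.42 in batch 1 and 0.48 in batch 2 (edgeR adjusted p = 0.000986 and 0.0477).

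Cdkn1c was lower in neurons, at 17.7, 26.8 and 60.6 CPM against 29.7, 55.0 and 79.0 CPM in glia, a log2 difference of −0.61 ± 0.27 (edgeR adjusted p = 0.0393). In the coeliac ganglion the order was turned, with 60.6 CPM in neurons and 53.1 in glia. The call was lost in 8 of 16 alternatives, with an adjusted p of 0.155 without pelvic 1, 0.0942 without lumbar and 0.109 without pelvic 2. It was −0.91 in batch 1 and −0.39 in batch 2 (edgeR adjusted p = 0.0333 and 0.0554). Of the 9 members that passed the filter on low counts (all but Magel2), 4 were thus higher and 1 lower in neurons, where 74.6% of the 12953 genes tested were called, 40.9% as higher and 33.6% as lower, or 5300 and 4358 genes, which became 4471 and 5178 with library totals in place of TMM scaling. Their median log2 difference was 0.95, against 0.12 over all genes tested.

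Dlk1, Peg10, H19 and Igf2 did not pass the test between neurons and glia over all 6 libraries. Dlk1 was at 5.41, 12.1 and 169 CPM in neurons and 23.5, 53.2 and 93.5 CPM in glia, a log2 difference of −0.96 ± 0.44 (edgeR adjusted p = 0.0502). In 5 libraries it was below its glial level and in the sphenopalatine above it. Without the sphenopalatine library the log2 difference was −1.85 (edgeR adjusted p = 0.000145) for Dlk1, −1.36 (adjusted p = 0.000787) for Peg10, −1.25 (adjusted p = 0.0214) for H19 and −0.36 (adjusted p = 0.597) for Igf2. With all libraries the log2 values were −0.48 ± 0.42 for Peg10 (adjusted p = 0.301), 0.19 ± 0.66 for H19 (adjusted p = 0.807) and 1.26 ± 0.81 for Igf2 (adjusted p = 0.162). The sphenopalatine library thus decided the values of these 4 genes, and it is described further on.

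Magel2, a partner of ubiquitin ligases, was sparse. It gave 44 to 449 UMIs per library in neurons, or 2.37 to 5.95 CPM, against 1 to 6 UMIs in glia and 6 to 57 in fibroblasts, or 1.28 to 5.44 CPM. It gave at most 2 UMIs per library in each of the other classes. It did not pass the filter, and in the fit of all genes without a filter its log2 difference between neurons and glia was 3.19 ± 0.41 (edgeR adjusted p = 5.43e-09). Between fibroblasts and neurons the corresponding value was −0.51 ± 0.34 (adjusted p = 0.224).

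**Figure D1:**
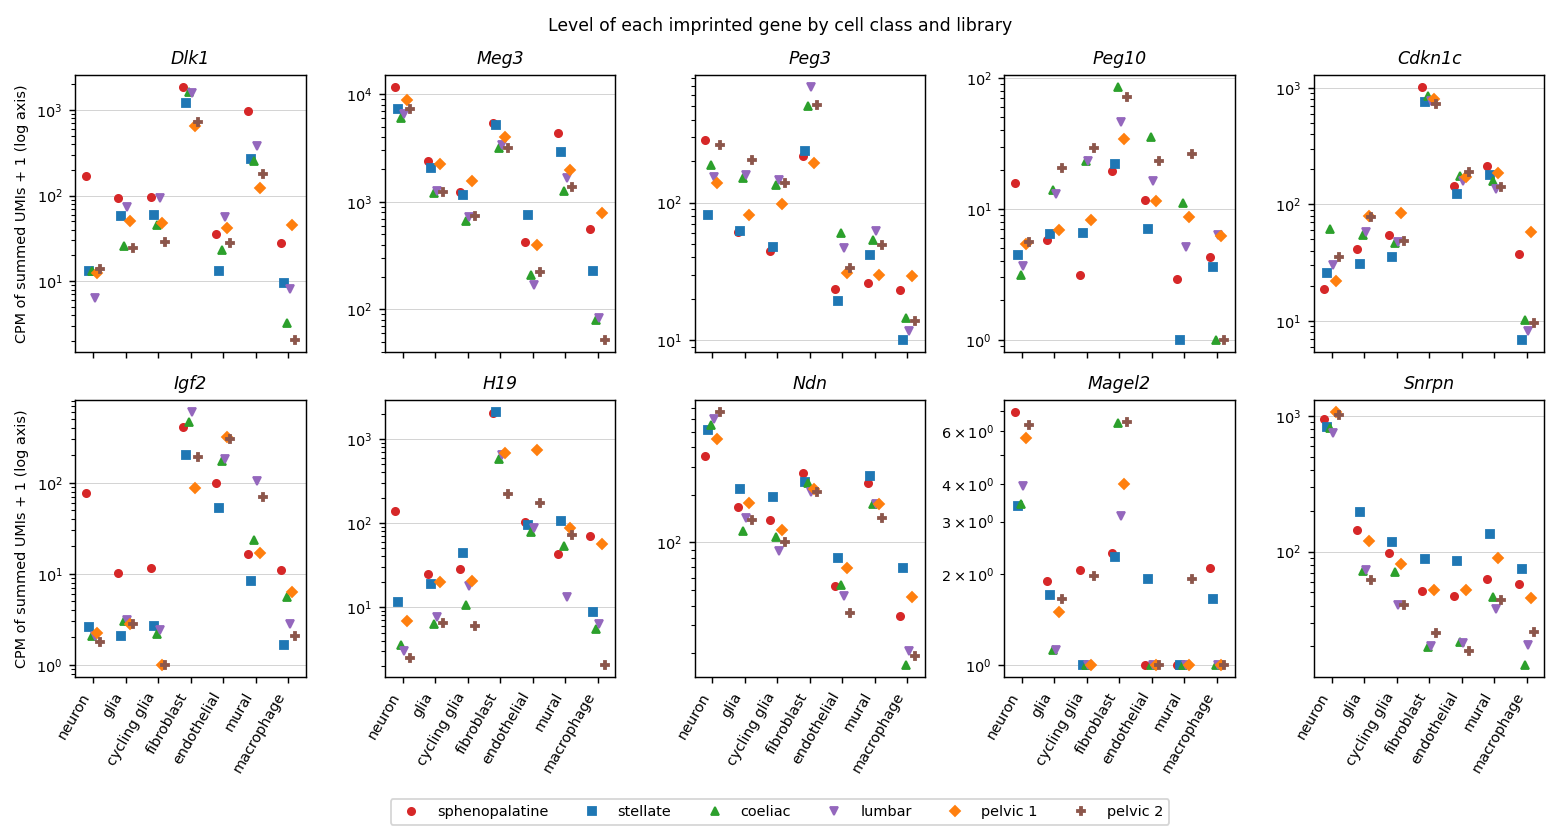
CPM + 1 of each of the 10 genes (log axis) in 7 cell classes, with 1 point per library. Snrpn, Ndn and Meg3 are highest in neurons and Dlk1 and Cdkn1c in fibroblasts in all 6 libraries, with the sphenopalatine neurons apart from other neurons for Dlk1 (169 CPM), Igf2 (76.7 CPM) and H19 (137 CPM).

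Some neuronal RNA is present in the droplets of other cells, and its amount bears on the levels in glia. In glia Snrpn was at 5.95 to 23.5% of its neuronal level in the same library, and the neuronal gene Stmn2 at 3.04 to 18.997%. In fibroblasts Snrpn was at 2.31 to 10.4% and Stmn2 at 0.96 to 11.2%. Ndn was at 20.7 to 47.5% of its neuronal level in glia and at 31.4 to 78.3% in fibroblasts, above the share of Stmn2 in each. The part of free RNA in the glial and fibroblast levels of Snrpn was not tested.

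Fibroblasts, the connective tissue cells of the ganglion sheath and stroma, had 8 of the 9 tested members above glia and 1, Snrpn, below. Of all genes 54% were called in this comparison, 26.6% as higher and 27.4% as lower, or 3446 and 3555 genes, which became 2808 and 4483 when library totals replaced TMM scaling. The median log2 difference of the 9 members was 2.28, against −0.03 over all genes. Igf2 was at 87.2, 306 and 597 CPM in fibroblasts and at 1.07, 1.92 and 9.13 CPM in glia, a log2 difference of 7.41 ± 0.83 (edgeR adjusted p = 1.30e-09). H19 was at 221, 657 and 2075 CPM in fibroblasts and at 5.32, 12.2 and 23.6 CPM in glia, a log2 difference of 6.52 ± 0.73 (edgeR adjusted p = 1.11e-09). For both genes the lowest fibroblast library was far above the highest glial library, while fibroblasts of different libraries differed several-fold. H19 in fibroblasts was at 2042 (sphenopalatine), 2075 (stellate) and 671 CPM (pelvic 1) in batch 1. In batch 2 it was at 579 (coeliac), 642 (lumbar) and 221 CPM (pelvic 2). Its glial levels were 23.6, 17.7 and 18.7 CPM against 5.32, 6.70 and 5.47 CPM in the same order. In the pelvic ganglion, with 1 library in each batch, the batch 1 level was the higher in both classes, which was not tested. Each other ganglion was in 1 batch, so for these ganglion and batch cannot be told apart.

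Dlk1 was at 645, 1404 and 1847 CPM in fibroblasts and at most at 93.5 CPM in glia, a log2 difference of 4.83 ± 0.49 (edgeR adjusted p = 1.42e-10). Cdkn1c varied little over ganglia, with 734 to 1017 CPM in fibroblasts (median 787), and differed from glia by 4.07 ± 0.30 on the log2 scale (edgeR adjusted p = 3.57e-14). Myelinating Schwann cells, found in the sphenopalatine (15 cells) and pelvic 1 (72 cells), had 423 and 657 CPM of Cdkn1c, below fibroblasts and above the other glia of those libraries. Peg3 was at 193, 370.5 and 686 CPM in fibroblasts and differed from glia by 1.86 ± 0.25 (edgeR adjusted p = 6.34e-08), and Peg10 at 18.6, 39.2 and 84.3 CPM, differing by 2.28 ± 0.41 (adjusted p = 1.38e-05). Differences of Meg3 and Ndn were smaller, 1.41 ± 0.29 (adjusted p = 1.00e-04) and 0.71 ± 0.18 (adjusted p = 9.59e-04), and Snrpn was lower in fibroblasts by a log2 value of −1.36 ± 0.19 (adjusted p = 1.14e-07). All 9 kept their direction and call in each batch alone.

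The comparison of fibroblasts with neurons divided the members by these patterns. Higher in fibroblasts were Dlk1 (log2 difference 5.79 ± 0.52), H19 (6.33 ± 0.72), Igf2 (6.16 ± 0.77), Cdkn1c (4.68 ± 0.31), Peg10 (2.76 ± 0.42) and Peg3 (0.92 ± 0.25), with edgeR adjusted p-values from 3.36e-16 for Cdkn1c to 0.00109 for Peg3. The Peg3 call was lost in batch 1 alone (log2 0.44, edgeR adjusted p = 0.228), and Igf2 was at 4.46 in batch 1 and 8.66 in batch 2. Higher in neurons were Snrpn, with a log2 value of fibroblasts over neurons of −4.81 ± 0.21 (edgeR adjusted p = 7.87e-21), Ndn with −1.26 ± 0.18 (adjusted p = 7.44e-08) and Meg3 with −1.04 ± 0.29 (adjusted p = 0.00160). Thus 6 members were called higher and 3 lower, beside 35.7% and 41.2% of all genes, and 76.9% in either direction. The neighbouring genes Dlk1 and Meg3 lay on opposite sides of this comparison, Igf2 and H19 on the same side. Because the 3 comparisons of neurons, glia and fibroblasts share sums, their values are given side by side and not as independent results.

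**Figure D2:**
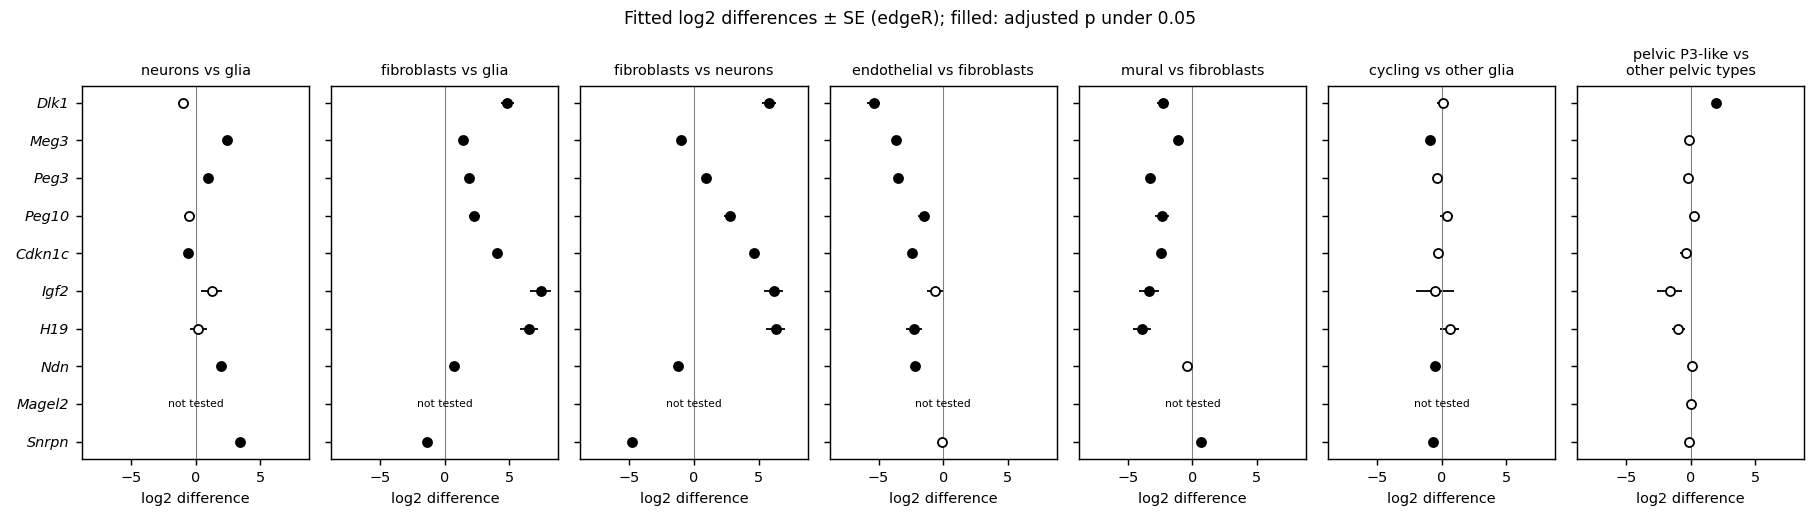
Log2 differences of the tested members in each comparison of classes (points, with bars of 1 SE from edgeR). Igf2, H19 and Dlk1 have the widest range, and Snrpn is the member with the lowest value of fibroblasts over neurons (−4.81).

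In the vessel cells no tested member was called above fibroblasts in the endothelium, where 7 of 9 were lower, beside 26.1% of all genes called higher, 26.7% lower and 52.8% in either direction by edgeR. An unadjusted p under 0.05 was found for 7 members, all lower, and DESeq2 also called 7 lower and 0 higher. Dlk1 was at 12.1, 30.6 and 54.5 CPM in endothelial cells, a log2 difference of −5.38 ± 0.52 from fibroblasts (edgeR adjusted p = 4.36e-11), and its groups did not overlap. Meg3 was at 168, 307 and 747 CPM with a difference of −3.68 ± 0.32 (adjusted p = 3.87e-12), and Peg3 at 18.2, 31.1 and 59.4 CPM with −3.52 ± 0.28 (adjusted p = 3.24e-13). Igf2 was at 51.8, 177 and 321 CPM in endothelial cells, and the difference of −0.66 ± 0.63 was not called (edgeR adjusted p = 0.399). Its ranges overlapped, and in both pelvic libraries the endothelial level (321 and 304 CPM) was above that of fibroblasts (87.2 and 190.0 CPM). In batch 2 alone Igf2 was called lower in the endothelium (−0.97, edgeR adjusted p = 0.0332). H19 was lower than in fibroblasts by a log2 value of −2.23 ± 0.62 (adjusted p = 0.00256), with 77.9 to 174 CPM in 5 libraries and 729.8 CPM in pelvic 1, and its call was lost in batch 1 alone (adjusted p = 0.0667). In pelvic 1 a cluster of 41 endothelial cells led by Gkn3, a gene of arterial endothelium, had 603 CPM of Igf2 and 1360.2 of H19, against 259 and 591 CPM in the other cluster of 182 cells.

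Mural cells had 7 tested members below fibroblasts and 1 above, beside 21.8% and 14.6% of all genes and 36.4% in either direction (2821 lower and 1893 higher, or 2142 and 2536 with library totals in place of TMM). Dlk1 was at 123, 261 and 981 CPM, a log2 difference of −2.26 ± 0.45 (edgeR adjusted p = 1.02e-04), and the highest library, the sphenopalatine, reached into the fibroblast range. H19 and Peg3 differed by −3.92 ± 0.70 (adjusted p = 2.30e-05) and −3.30 ± 0.30 (adjusted p = 4.38e-11), and Cdkn1c by −2.45 ± 0.29 (adjusted p = 1.17e-08). Igf2 was at 7.35, 19.3 and 103 CPM with a difference of −3.38 ± 0.76 (adjusted p = 5.01e-04). Its level was below that of the endothelium in each library, a difference that was not tested. Meg3 (−1.10 ± 0.29, edgeR adjusted p = 0.00282) lost its call in batch 1 alone (adjusted p = 0.103). Snrpn was called higher in mural cells (0.66 ± 0.21, edgeR adjusted p = 0.0134), a call lost without pelvic 1 (adjusted p = 0.0605) and in batch 1 alone (adjusted p = 0.0544). Within mural cells Dlk1 was higher in clusters led by Rgs5, a pericyte gene, than in those led by Myh11, a smooth muscle gene, in the libraries that held both: 1129.9 against 556 CPM in the sphenopalatine, 168 against 33.1 in pelvic 1 and 294 against 19.6 in pelvic 2. A further pelvic 1 cluster of 26 mural cells, led by Colec11, Gstm1 and the smooth muscle gene Actg2, had 396 CPM, above the Rgs5 cluster of that library, so the order did not hold for all cells with smooth muscle genes. Macrophages had 1.07 to 44.2 CPM of Dlk1, 15.9 to 67.6 of Ndn and 51.2 to 789.8 of Meg3.

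Cycling glial cells were compared with other glia because Cdkn1c inhibits the cell cycle. Cdkn1c was at 34.4, 46.8 and 82.6 CPM in cycling and 29.7, 55.0 and 79.0 CPM in other glia, ranges that overlapped almost fully, with a log2 difference of −0.25 ± 0.29 (edgeR adjusted p = 0.536). The cycling class was defined by genes of mitosis such as Mki67 and Top2a, so glia led by genes of DNA replication, such as Ung, Pclaf, Mcm3, Mcm5 and Hells, remained among the other glia, and dividing cells stood on both sides of this comparison. In these clusters Cdkn1c was at 36.5 CPM in the sphenopalatine, 16.5 in the stellate, 28.9 in the coeliac, 27.7 and 28.2 in the lumbar, 32.9 in pelvic 1 and 45.4 in pelvic 2, below the glial class of the same library in all 6 libraries. This was seen after the comparison was made and was not tested. Of the 9 tested members 3 were lower in cycling glia and 0 higher, beside 22.1% and 11.6% of all genes and 33.7% in either direction (2861 lower and 1504 higher, or 1756 and 1989 with library totals in place of TMM): Meg3 (−0.92 ± 0.29, edgeR adjusted p = 0.0129), Ndn (−0.52 ± 0.18, adjusted p = 0.0270) and Snrpn (−0.69 ± 0.19, adjusted p = 0.00488). No other member had an unadjusted p under 0.05, and DESeq2 called 2 lower and 0 higher. All 3 were higher in neurons than in glia, and the 5 neuronal marker genes summed to 479 to 2092 CPM in cycling and 560.0 to 2567 CPM in other glia. The part of neuronal RNA in these differences was not tested. The Meg3 call was lost without sphenopalatine (adjusted p = 0.084) and without coeliac (adjusted p = 0.0521), and the Snrpn call without sphenopalatine (adjusted p = 0.056) and without lumbar (adjusted p = 0.0611). The Ndn call held without stellate only (adjusted p = 0.0384) and was lost without each of the other libraries (adjusted p from 0.0602 to 0.163). In batch 1 and batch 2 alone the log2 values were −0.85 and −0.92 for Meg3, −0.42 and −0.56 for Ndn and −0.73 and −0.59 for Snrpn, with adjusted p-values of 0.0946 for Meg3 and 0.118 for Ndn in batch 1.

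Glia were not uniform for Dlk1. Clusters of glia made within each library without imprinted genes were grouped by their leading genes after values had been seen, so that their differences are descriptions. Glia led by Fabp7 and Hes5, genes of immature glia, had 36.2, 78.6 and 135 CPM of Dlk1 (lowest, median and highest library), and glia led by Scn7a and Kcna1, channel genes, of which Scn7a is known from non-myelinating Schwann cells, had 2.01 to 23.3 CPM. Within each of the 6 libraries the Fabp7 and Hes5 group was the higher. Cdkn1c was the other way around in 5 of 6 libraries, at 24.5 to 83.7 CPM in the Fabp7 and Hes5 group and 59.3 to 88.4 CPM in the Scn7a and Kcna1 group, with pelvic 1 the exception at 83.7 and 81.0 CPM.

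Fibroblasts likewise fell into groups. Those led by Clec3b and Pi16, of which Pi16 is known from adventitial fibroblasts, had 1419 to 3559 CPM of Dlk1 in 5 libraries, those led by Thbs4 and Ccl11 had 329.9 to 2356 CPM, and those led by Cldn1, a tight junction gene, and Klf5 had 118 to 1156 CPM. A lumbar cluster of 63 cells had both Clec3b and Cldn1 among its leading genes. With 1057 CPM of Dlk1, it was counted in the Cldn1 and Klf5 group, so the ranges depend on this choice. The order was not the same everywhere: in the stellate and coeliac ganglia the Thbs4 and Ccl11 group was slightly above the Clec3b and Pi16 group. In the pelvic ganglion the clusters led by Pi16, of 109 and 45 cells in pelvic 1 and pelvic 2, had 2919 and 1519 CPM of Cdkn1c, 3440.3 and 2832 CPM of Dlk1, and 13030.2 and 9346 CPM of Meg3. These Meg3 levels were above those of neurons in the same libraries, 8860.3 and 7231 CPM, although fibroblasts as a class were below neurons.

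**Figure D3:**
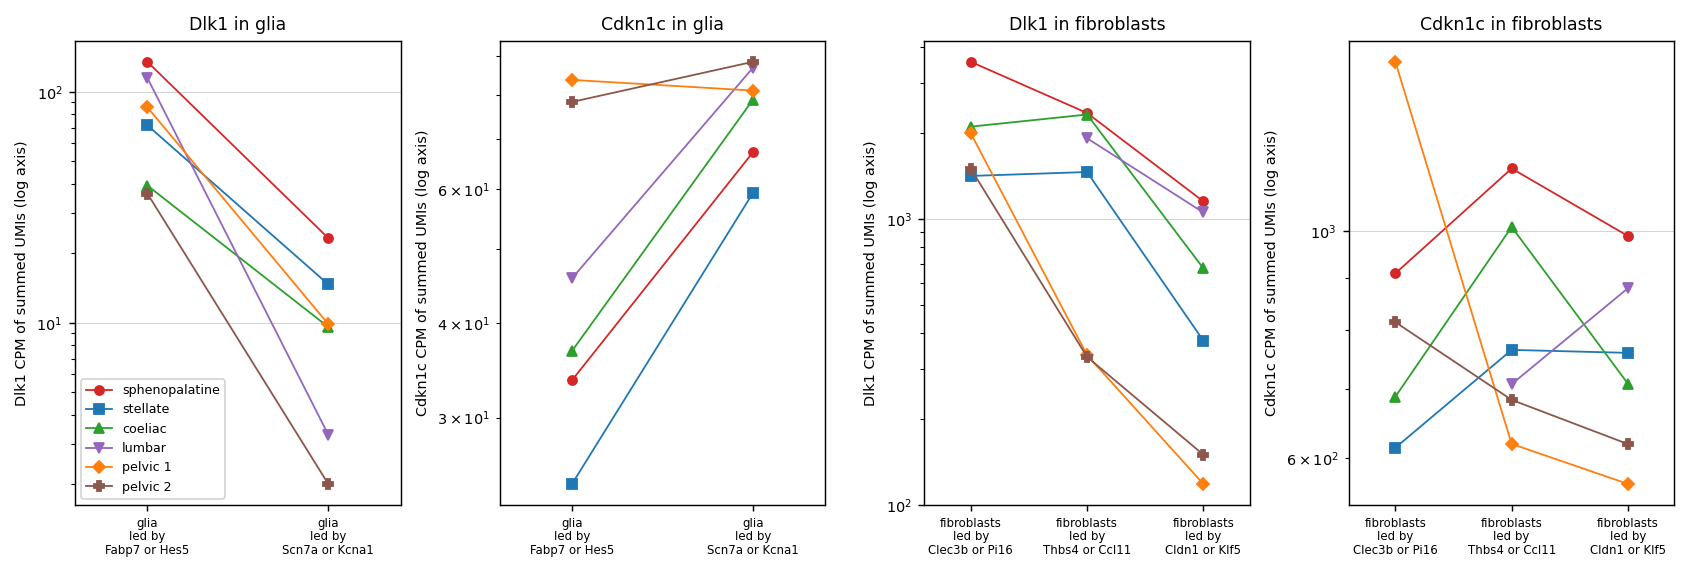
CPM (log axis) of Dlk1 and Cdkn1c in groups of glial and fibroblast clusters named by their leading genes, with 1 point per library and lines joining the groups of a library. Dlk1 is higher in the Fabp7 or Hes5 group than in the Scn7a or Kcna1 group of glia in all 6 libraries, and lowest among fibroblasts in the Cldn1 or Klf5 group.

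Among neurons, the question was whether the members differ between ganglia. The sphenopalatine ganglion has 1 library, so its values have no replicate check and only counting error is covered by their intervals. Dlk1 was at 169 CPM in sphenopalatine neurons and at 12.2 (stellate), 12.01 (coeliac), 5.41 (lumbar), 11.4 (pelvic 1) and 12.7 CPM (pelvic 2) in the others. Igf2 was at 76.7 CPM, against 0.781 to 1.59 CPM, and H19 at 137 CPM, against 1.51 to 10.6 CPM. For each gene 1 library stood apart from the other 5. Relative to the mean of the other libraries the level was 15.7-fold for Dlk1 (95% Poisson interval 15.0 to 16.5), 66.8-fold for Igf2 (58.4 to 76.4), 30.4-fold for H19 (28.5 to 32.4) and 4.30-fold for Peg10 (3.91 to 4.73). Against the stellate and pelvic 1 libraries of the same batch alone, the ratios were 14.3, 54.5, 16.7 and 3.76.

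The other members had ratios nearer to 1. Meg3, the neighbour of Dlk1, was at 1.62-fold, Peg3 at 1.72-fold and Magel2 at 1.68-fold (1.49 to 1.89) of the mean of the other libraries, Snrpn at 1.06-fold, Ndn at 0.634-fold and Cdkn1c at 0.522-fold. Meg3, Peg3 and Magel2 were highest and Ndn and Cdkn1c lowest in the sphenopalatine of all 6 libraries, with pelvic 2 next for Peg3 (261 against 282 CPM) and Magel2 (5.28 against 5.95 CPM). These ratios are to a mean over both batches. In the stellate and pelvic 1 libraries of the same batch Peg3 was at 80.2 and 138 CPM, below the 153, 187 and 261 CPM of lumbar, coeliac and pelvic 2. Cdkn1c, at 17.7 CPM in the sphenopalatine, was at 24.5 and 20.8 CPM in stellate and pelvic 1 and at 60.6 CPM in the coeliac.

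The rise was present in many cells. After each cell was thinned to 2000 UMIs, Igf2 was found in 11.7% of the 1887 sphenopalatine neurons (95% Wilson interval 10.3 to 13.2) and in 0.114 to 0.422% of neurons in the other libraries. Without thinning, at a median of 38233 UMIs, it was found in 43.1% of sphenopalatine neurons. In macrophages of the same library the share was 6.54% at a median of 7788 UMIs and 1.87% after thinning. Thinned shares in neurons were 22.9% against 1.40 to 4.61% for Dlk1 and 16.6% against 0.645 to 2.17% for H19. The transcripts were in part seen in the same cells, which is given as a description: after thinning Igf2 was seen in 30.4% of 313 neurons with H19 and in 8.01% of the 1574 without it, and Dlk1 in 42.5% of 221 neurons with Igf2 against 20.3% of the 1666 others.

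Fibroblasts of the sphenopalatine ganglion were rich in the same transcripts, with 1847 CPM of Dlk1, 409 of Igf2 and 2042 of H19, so the neuronal levels were set against those of fibroblast genes. In sphenopalatine neurons Igf2 was at 18.8% of its fibroblast level in the same library, Dlk1 at 9.16% and H19 at 6.71%. The fibroblast genes Col1a1, Col1a2, Col3a1, Lum and Dcn were at 0.288, 0.478, 0.431, 0.410 and 0.215% of theirs, and Cdkn1c at 1.74%. In macrophages of that library Dlk1, Igf2 and H19 were at 1.44, 2.44 and 3.37%, beside 1.95% for Col1a1 and 2.59% for Col1a2. Neurons of the other libraries had 0.338 to 1.77% of the fibroblast level for Dlk1, 0.183 to 1.40% for Igf2 and 0.318 to 0.869% for H19. The 7 fibroblast markers summed to 128 CPM in sphenopalatine neurons, within the 65.1 to 246 CPM of the other libraries. With the 8 sphenopalatine neurons above 0.5% of fibroblast marker UMIs removed, and the same cells of the other libraries, the ratios to other libraries were 18.6 for Dlk1, 87.9 for Igf2 and 39.3 for H19.

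**Figure D4:**
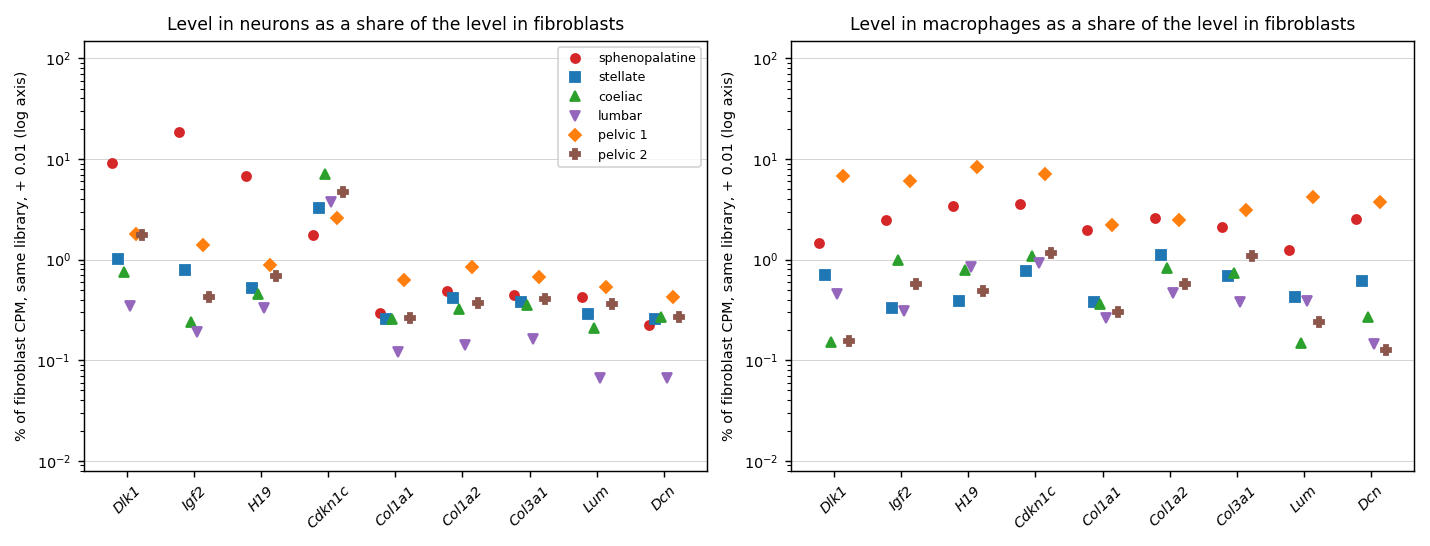
Level of each gene in neurons (left panel) and in macrophages (right panel) as a percent of its level in fibroblasts of the same library (log axis, with a small constant added), 1 point per library, for 4 members and 5 fibroblast genes. In sphenopalatine neurons Igf2 is at 18.8% and Dlk1 at 9.16%, and Col1a1 is at 0.288%.

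Sphenopalatine neurons also differed among themselves. Of 11 clusters made without imprinted genes, 201 cells led by Penk, Gpr50 and Tac1 (Penk and Tac1 encode neuropeptide precursors) had 358 CPM of Dlk1, 273 of Igf2 and 750.3 of H19. A larger cluster of 433 cells led by Pyy and Dgkk had 223 CPM of Dlk1, 89.0 of Igf2 and 32.6 of Peg10. At the other end, 174 cells led by Hspb7 and Rxfp1 had 29.3 CPM of Dlk1 and 5.95 of Igf2, and 118 cells led by Pcp4l1 had 4.47 CPM of Igf2 and 13.2 of H19. Col1a1 was at 7.84 to 18.2 CPM in all clusters but 1, a cluster of 15 cells led by collagen genes at 1036 CPM. The clusters low in Igf2 were above the level of all neurons of each other library. Clusters of 392, 174, 149 and 118 cells had 7.03, 5.95, 5.04 and 4.47 CPM of Igf2. These levels were below those of macrophages (9.98 CPM) and glia (9.13 CPM) of the sphenopalatine library itself. The part of free RNA in the levels of these clusters was not tested.

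In stellate neurons the corresponding clusters had 0 to 17.2 CPM of Igf2, apart from a cluster of 36 cells led by collagen genes with 52.6 CPM of Igf2, 302 of H19 and 746 of Col1a1. Ndn, which acts in the survival and outgrowth of sensory and sympathetic neurons, varied there from 224 to 971 CPM, the latter in 213 cells led by Sytl4, Cbln2 and Tlx3. Peg10 reached 64.8 CPM in 28 cells led by Slc5a7, the choline transporter of cholinergic neurons. These clusters come from 1 library each and were selected after their values were seen.

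The pelvic ganglion holds several neuron types, which were named P1-like to P4-like by markers. P3-like cells are the noradrenergic type, with 502 and 515 CPM of Th, the first enzyme of catecholamine synthesis, and 0.575 and 0.265 CPM of Chat, the enzyme that makes acetylcholine, in pelvic 1 and pelvic 2. The test set P3-like cells against the mean of the other types. In pelvic 1 Dlk1 was at 9.56 (P1-like), 5.22 (P2-like), 26.5 (P3-like) and 6.69 CPM (P4-like), and in pelvic 2 at 13.96, 7.19, 29.1 and 4.17 CPM. P3-like neurons were highest in both libraries. Dlk1 was found in 32.8 and 54.5% of P3-like cells, against 15.0 to 25.5% and 22.3 to 40.8% in the other types. The Wilson intervals of these shares overlapped between P3-like and P1-like cells in both libraries. The log2 difference in level was 1.96 ± 0.18 (edgeR adjusted p = 7.49e-07, 2 libraries). It was the only one called of the 10 members, all of which were tested here, beside 24.9% of 13445 genes, 12.6% as higher and 12.2% as lower. An unadjusted p under 0.05 was also found for Peg3 (−0.25, edgeR adjusted p = 0.105), and DESeq2 likewise called 1 higher and 0 lower.

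Other members differed between pelvic types in description only. Cdkn1c was at 22.0 and 93.0 CPM in P2-like neurons of the 2 libraries, against 6.18 to 19.4 and 8.33 to 14.8 CPM in the other types. It was found in 111 of 320 and 76 of 112 P2-like cells, and the tenth of these cells with the most Cdkn1c UMIs held 62.0 and 54.9% of them. Ndn was highest in P1-like neurons, at 581 and 794 CPM, and lowest in P2-like, at 276 and 443 CPM. Peg3 was highest in P4-like neurons, at 265 and 449.8 CPM, and Magel2 was at 7.74 and 8.02 CPM in P1-like neurons. The type with the highest level was the same in both libraries for each of these 4 genes, with 46 and 33 P4-like cells. For Cdkn1c in pelvic 1, the Poisson intervals of P2-like (19.5 to 24.6 CPM) and P1-like neurons (17.2 to 21.8 CPM) overlapped. An unnamed pelvic 1 cluster of 59 cells below the neuron threshold is not part of these types. It had 3 of 5 neuronal markers, and Aldh1a2, Sst and Calcb were among its leading genes, as in P4-like cells. Its levels were 21.3 CPM of Igf2, 45.9 of H19 and 310 of Ndn, against 0.515, 2.06 and 523 CPM in P4-like neurons of pelvic 1.

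**Figure D5:**
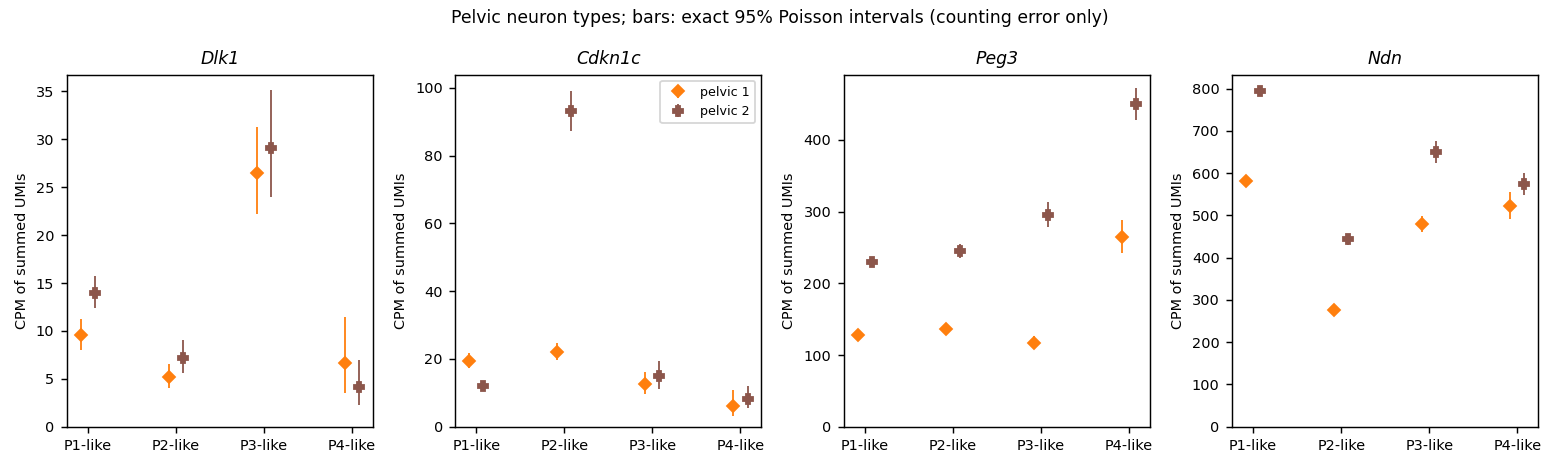
CPM (linear axis) of Dlk1, Cdkn1c, Peg3 and Ndn in P1-like to P4-like pelvic neurons, with pelvic 1 and pelvic 2 as separate points. Bars are exact Poisson intervals, which cover counting error only. Dlk1 is highest in P3-like neurons in both libraries (26.5 and 29.1 CPM), and Cdkn1c in P2-like neurons (22.0 and 93.0 CPM). In pelvic 1 the Cdkn1c bars of P2-like and P1-like neurons overlap.

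The genes whose levels ran most nearly parallel to each member were sought over 42 sums of class and library, as Pearson correlations of log2(CPM + 1) among 13495 genes. The sums share libraries and depth and are not independent, so the values are descriptions. Snrpn was nearest to the neuronal genes Prph (r = 0.98), Pcbd1 and Stmn3 (both 0.97). Meg3 and Ndn were nearest to each other (0.95), with Rian, the noncoding RNA downstream of Meg3, at 0.94 for both. Dlk1 was nearest to Serping1 (0.93), Gpc3 (0.91) and Pcolce (0.89), of which Gpc3 encodes a proteoglycan known to restrain growth. Cdkn1c was nearest to Gstm2 (0.92), Meox2 (0.91) and Col6a1 (0.90).

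Igf2 was nearest to Tfpi2 (0.89) and then to H19 and Thbd (both 0.85), and H19 to Igf2, Bace2 and Prickle1 (all 0.85). Peg3 was nearest to Zfp9 (0.86), Zfhx4 (0.85) and Casc4 (0.84), Peg10 to Sned1 (0.80), Mapkbp1 and Gcc1 (both 0.78), and Magel2 to Plekha6 (0.88), Ahnak2 (0.84) and Fam171b (0.83). Between members of 1 cluster the values were 0.85 for Igf2 and H19 and 0.50 for Dlk1 and Meg3. They were 0.73 for Ndn and Snrpn, 0.64 for Ndn and Magel2 and 0.52 for Magel2 and Snrpn. Members on different chromosomes had values from −0.33 for Peg10 and Snrpn to 0.95 for Meg3 and Ndn, with 0.04 for Meg3 and Igf2 and 0.82 for Dlk1 and Cdkn1c. For Cdkn1c and H19, both on chromosome 7 with 792 kb between Cdkn1c and Igf2, the value was 0.81.

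A list of 54 other imprinted genes, of which 52 were in the files and 39 were tested, was counted in the same fits. Of these 26 were higher and 7 lower in neurons than in glia, beside 40.9 and 33.6% of all genes, with a median log2 difference of 1.09 against 0.12 over all genes. In fibroblasts 17 were higher and 10 lower than in glia, beside 26.6 and 27.4% of all genes, with a median of 0.15 against −0.03. Against neurons 15 were higher and 22 lower in fibroblasts, beside 35.7 and 41.2% of all genes, with a median of −0.53 against −0.10. The medians of the 9 tested members in these last comparisons were 2.28 and 2.76, and the lists were not tested against each other. In cycling glia 0 were higher and 9 lower than in other glia, beside 11.6 and 22.1% of all genes. By mean CPM over libraries the leading genes of the list were Gnas (a G protein subunit), Nnat, Rian and Nap1l5 in neurons, Gnas, Cd81, Nnat and Mest in glia, and Gnas, Mest, Cd81 and Kcnq1ot1 in fibroblasts, with Gnas at 5790.1 CPM in neurons, 1301 in glia and 2398 in fibroblasts.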

How the data were processed

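The values used were the UMI counts per gene and droplet that the authors deposited, made with Cell Ranger 6.0.1 on mm10 per the labels and restricted to droplets called as cells, without normalization. No column was left unmapped. Droplets with 1500 to 11000 genes and under 15% mitochondrial UMIs were kept. Neurons were cells with a mean above 3 of 4 neuronal markers after sctransform 0.4.2 (Seurat 5.3.0, R 4.3.3). Neuron-glia doublets were removed by marker, and a nearest-neighbour score of simulated doublets served as an alternative (2224 of 21442 cells, 10.4%). Other classes came from Leiden clusters per library (leidenalg 0.10.2, Python 3.11.15), made without imprinted genes and named by fixed markers. Clusters with under 3 detected markers of a class or with conflicting leading genes stayed unnamed. So did clusters with many markers of another class, and clusters with raised neuronal markers whose cells were below the neuron threshold.

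Raw counts were summed per library and class (42 sums) and tested with edgeR 4.0.16 (quasi-likelihood, TMM, filterByExpr, library as a block, Benjamini-Hochberg adjustment over all genes tested, called under 0.05). The SE of a log2 difference is the difference divided by the root of F. Pelvic neuron types were tested in the same way within the 2 pelvic libraries. Levels of a single library have exact Poisson intervals and shares Wilson intervals at 95%, which cover counting error only, and 3 UMIs of a class total are the floor for a count of 0. For shares each cell was thinned to 2000 UMIs, and no cell was shallower. Neurons had 26658 to 108493 UMIs in the median and glia 3423 to 12096.5. The test was tried on simulated counts of 13684 genes for neurons against glial cells: 88 of 93 genes changed by log2 1 and 97 of 97 changed by log2 2 were recovered, with 6 false calls among 191. The simulation gave every gene the same dispersion, had no library effect and changed few genes. In the data 74.6% of genes were called in this comparison, so these rates need not hold for the reported fits. Alternatives were library totals, DESeq2 1.42.0, no filter, no block, each library left out, each batch alone, simulated doublets removed, neurons selected on log counts and thinning. The removal of cells with over 0.5% fibroblast marker UMIs, batch 1 alone for ratios between ganglia and the pelvic fit without block were chosen after seeing the data, as were the groups of clusters by leading genes.

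Named are all 10 genes, the 3 genes nearest to each in profile, the leading 4 of the other imprinted genes per class, and markers. The genes and lists were chosen with earlier results of these data known. RefSeq upstream windows matched 7 of the 10 genes. Snrpn overlaps Snurf and Gm38393 on its strand, and reads shared by them cannot be told apart. Values of some genes are not reported here.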

Additional observations from a re-analysis of the deposited data

Results flagged for a closer look

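Of 70 combinations of a gene and a cell class with 6 libraries, 10 had 1 library far from the others by Dixon's ratio. For replicate values with a normal spread, chance alone gives about 1 in 20. The libraries differ in ganglion and batch and are not such replicates, so this rule does not measure an excess over chance. In neurons the sphenopalatine library stood apart for Dlk1 (169 CPM), Peg10 (14.9 CPM), Igf2 (76.7 CPM) and H19 (137 CPM). The sphenopalatine was also far above the rest for Igf2 in glia (9.13 CPM) and cycling glia (10.6 CPM) and for Dlk1 in mural cells (981 CPM). Its endothelium (98.4 CPM of Igf2) and fibroblasts (409 CPM) did not stand apart in this way.

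In endothelial cells H19 stood apart in pelvic 1, at 729.8 CPM against 77.9 to 174 CPM in the others. Magel2 was flagged at 0.934 CPM in stellate endothelial cells and at 0.938 CPM in pelvic 2 mural cells, levels that rest on at most 2 UMIs.

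The log2 ratio of neurons over glia had opposite signs beyond counting error in different ganglia, a difference that was not tested since each ganglion but the pelvic has 1 library. For Dlk1 it was 0.85 in the sphenopalatine and −2.23, −1.05, −3.73, −2.10 and −0.89 in stellate, coeliac, lumbar, pelvic 1 and pelvic 2. For H19 it was 2.53 against −0.73, −1.06, −1.71, −1.68 and −1.86 in the same order. For Peg10 it was 1.63 in the sphenopalatine and −0.66, −2.61 and −2.16 in stellate, coeliac and lumbar.

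Clusters led by Chga, a secretory granule gene of endocrine cells, stayed unnamed and entered no comparison. In pelvic 1 (164 cells) they had 2093 CPM of Dlk1 and 171 of Peg10, and in pelvic 2 (34 cells) 2488 and 559.6 CPM, above the 11.4 and 12.7 CPM of Dlk1 and 4.44 and 4.58 CPM of Peg10 in neurons of the same libraries. Unnamed clusters of other ganglia that also had Chga were the coeliac one of 51 cells (1179 CPM of Chga, 725 of Dlk1, 83.6 of Peg10), the lumbar one of 23 cells (516, 418 and 110.3 CPM) and the stellate one of 56 cells (521, 394 and 25.3 CPM), and they too were above the neurons of their libraries for both genes.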

How the results depend on the processing

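Of 914 values of single genes under alternatives, 847 kept their direction and side of the threshold, 36 lost their call, 15 gained one and 16 changed sign, and in the comparison of fibroblasts with glia all 144 kept both. No paired analysis was possible because ganglia have 1 library each and share a replicate number without sharing a sample; the library was a block between the classes of that library. Leaving out a pelvic library was not fitted for pelvic types, which then have no residual degrees of freedom.

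With cells thinned to 2000 UMIs the genes called fell to 6278 for neurons against glia (from 9658), 4212 for fibroblasts against glia (from 7001), 6410.0 for fibroblasts against neurons (from 9960), 3272 for endothelium (from 6836), 2405 for mural cells (from 4714) and 1709 for cycling glia (from 4365), with fewer UMIs in each sum. Mural cells gave 3098 in batch 2, cycling glia 2369 without the library block, 2348 in batch 1 and 2780.0 in batch 2, and pelvic neurons 1120.0 without the block (from 3343). Over single libraries left out, genes called ranged from 9229 to 9560.0 for neurons against glia, 6350.0 to 6597 for fibroblasts against glia, 9543 to 9849 for fibroblasts against neurons, 6168 to 6483 for endothelium, 3892 to 4354 for mural cells and 3319 to 3603 for cycling glia.

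Members lower in neurons than in glia numbered 1 in the reported fit, 2 with library totals, with simulated doublets removed or with fibroblast-rich cells removed, 3 in batch 2, 0 without the block and when thinned, and 0 to 4 with 1 library left out, where members higher numbered 3 to 5. Members higher in mural cells (1, Snrpn) numbered 0 without the block, in batch 1 and when thinned, and 0 to 1 with 1 library left out. Members lower in cycling glia (3) numbered 0 without the block, 1 in batch 1, 1 when thinned and 0 to 3 with 1 library left out. Without a filter 1 member, Peg3, was lower in P3-like pelvic neurons. The causes were not tested.

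Sphenopalatine neurons over the mean of the other libraries were at 15.7 for Dlk1 and at 9.74 when thinned, 14.5 with neurons selected on log counts, 18.8 without simulated doublets, 18.6 without fibroblast-rich cells, 14.3 in batch 1, and 16.0 to 16.5 with a pelvic library left out. Peg10 (4.30) was at 6.96 thinned, 3.76 in batch 1 and 4.63 to 4.68 with a pelvic library left out. Igf2 (66.8) was at 44.2 thinned, 116 without simulated doublets, 87.9 without fibroblast-rich cells, 54.5 in batch 1 and 61.8 to 67.9 with a pelvic library left out. H19 (30.4) was at 19.4 thinned, 27.6 with log counts, 51.1 without simulated doublets, 39.3 without fibroblast-rich cells, 16.7 in batch 1 and 26.0 to 32.8 with a pelvic library left out.

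Changes of sign were all in values not called in the reported fit. Between neurons and glia they were Peg10 at 0.54 in batch 1, Igf2 at −0.36 without sphenopalatine and −0.81 in batch 2, and H19 at −0.0095 with library totals, −1.25 without sphenopalatine, −1.31 in batch 2 and −0.13 without simulated doublets. With 1 library left out Igf2 ranged up to 1.55 and H19 up to 0.47. The rest were Snrpn at 0.064 in thinned endothelium against fibroblasts, and in cycling glia Dlk1 at −0.10 in batch 1 and −0.031 without fibroblast-rich cells, Peg10 at −0.13 in batch 1 and −0.28 thinned, and Cdkn1c at 0.11 in batch 1 and 0.051 thinned. In P3-like neurons Peg10 was at −0.17 with types assigned by summed markers and Magel2 at −0.029 without a filter. Library totals in place of TMM moved the median log2 difference of all genes from 0.12 to −0.08 for neurons against glia, from −0.03 to −0.16 for fibroblasts against glia, from −0.08 to 0.05 for mural cells and from −0.20 to −0.06 for cycling glia.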

Other observations

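The clusters led by Chga in the pelvic libraries expressed the catecholamine enzymes Th (937 and 732 CPM in pelvic 1 and pelvic 2) and Dbh (1312 and 1135 CPM), while Pnmt, which makes adrenaline, was at 0.872 and 0 CPM. Besides Dlk1 and Peg10 they had 667 and 640 CPM of Ndn, against 446 and 662 CPM in neurons of the same libraries, and 421 and 237 CPM of Snrpn, against 1069 and 1022 CPM. Their levels of Igf2 were 9.60 and 12.3 CPM and those of Cdkn1c 21.8 and 21.6 CPM, both far below fibroblasts.

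In the stellate library an unnamed cluster of 37 cells had 36669 CPM of Meg3, above the 7246 CPM of stellate neurons, while its Dlk1 was at 37.1 CPM. Its leading genes were a mixture of T lymphocyte genes (Tcrg-C1, Cd3g, Cxcr6) and noncoding RNAs (Gm26871, 9530059O14Rik, C78859). It had 5 of 7 glial and 2 lymphocyte markers, and 816 CPM of Th and 1107 of Dbh, so it was given no cell type.

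In sphenopalatine neurons the cells led by Penk, Gpr50 and Tac1, with 273 CPM of Igf2 and 750.3 of H19, had 437 CPM of Nos1, the neuronal nitric oxide synthase, and those led by Pcp4l1, with 4.47 CPM of Igf2 and 13.2 of H19, had 1873 CPM. The order did not hold over all clusters. The 433 cells led by Pyy had 89.0 CPM of Igf2 and 1105 of Nos1, and 149 cells led by Npy had 5.04 and 987 CPM. The lowest Nos1 level, 196 CPM, was in 70 cells led by Lgals3, with 199 CPM of Igf2. The clusters were chosen after their values were seen, and no test was made.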
